A study of Mus musculus with 2 samples.

Results

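The unfolded protein response and the targets of the transcription factor ATF4 were followed through 41 genes, out of 20659 genes named on the array. The members were the genes of a fixed list, which was chosen, like their roles, with earlier results of these data known. They were found through the RefSeq accession of each probe, and 49 probes matched all 41 of them. Of these, 40 gave a signal well above background on both arrays. The lipoprotein receptor gene Vldlr did so on neither and has no value below. The study measured RNA of RAW246.1 cells, named macrophages in the labels, on 2 one-colour Agilent mouse arrays with Cy3 labelling, 1 array per group. The PBS group is the mock treatment, and the miR-122 group received synthetic miR-122, a microRNA known mainly from the liver; cells grew in DMEM and the labels state 5 μg/mL. Dose and treatment are worded identically for both samples, and the title of the treated sample reads as if miR-122 was absent, so directions rest on its source name and description. The labels give no duration of treatment and name RIPA buffer for extraction. No control small RNA and no known inducer of endoplasmic reticulum stress was analysed here.

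Misfolded protein in the endoplasmic reticulum (ER) is sensed by PERK, IRE1 and ATF6, encoded by Eif2ak3, Ern1 and Atf6. ATF6 and the spliced form of XBP1, which IRE1 makes, drive genes for chaperones, disulfide exchange and the disposal of misfolded protein. PERK and its relatives phosphorylate the initiation factor eIF2, which lowers general translation but favours translation of ATF4, and ATF4 in turn drives genes for amino acid supply and, with CHOP (Ddit3), genes of sustained stress. Macrophages are known to use parts of this response when they make and secrete large amounts of protein. The arrays measured mRNA only, so splicing of Xbp1, cleavage of ATF6 and translation of Atf4 were not measured.

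The promoters of these genes carry different known elements, and the stretches below are shown for 4 of the stress genes past 2-fold, for Asns as a standard ATF4 target, and for 4 genes of the chaperone role, of which Herpud1 holds an element of each kind. RefSeq promoters of build GRCm38.p6, 300 bases each from 250 before to 50 after a gene's start, covered 37 members and were missing for Atf6, Cth, Manf and Slc7a5. Both strands were searched for the C/EBP-ATF element (CARE, TGATGNAA), the ER stress elements ERSE (CCAAT and CCACG with 9 bases between) and ERSE-II (ATTGG and CCACG with 1 base between), the UPR element (UPRE, TGACGTGG) and the cyclic AMP response element (CRE, TGACGTCA). UPRE and CRE share their first letters, and no matches overlapped in a member. Capitals mark the letters of a match other than N, and each run is read 5′ to 3′ along the gene's strand.
Chac1, chr2:119351019-119351086, plus strand, CARE: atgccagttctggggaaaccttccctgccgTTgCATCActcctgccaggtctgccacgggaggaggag
Nupr1, chr7:126625543-126625610, minus strand, CARE: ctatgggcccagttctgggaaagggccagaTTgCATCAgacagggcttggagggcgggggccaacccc
Trib3, chr2:152344031-152344054, minus strand, CARE just after the start: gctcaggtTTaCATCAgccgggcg
Ppp1r15a, chr7:45526269-45526310, minus strand, CRE: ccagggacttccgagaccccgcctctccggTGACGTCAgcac
Asns, chr6:7693210-7693262, minus strand, CARE: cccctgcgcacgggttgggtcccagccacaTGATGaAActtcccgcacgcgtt
Hspa5, chr2:34771995-34772073, plus strand, ERSE: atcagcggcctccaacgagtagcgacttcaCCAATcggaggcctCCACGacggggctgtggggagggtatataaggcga
Hsp90b1, chr10:86705503-86705686, minus strand, ERSE in both orientations: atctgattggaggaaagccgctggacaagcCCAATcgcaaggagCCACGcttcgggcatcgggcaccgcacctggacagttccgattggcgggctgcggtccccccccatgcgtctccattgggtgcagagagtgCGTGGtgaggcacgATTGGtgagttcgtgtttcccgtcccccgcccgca
Creld2, chr15:88819490-88819568, plus strand, ERSE: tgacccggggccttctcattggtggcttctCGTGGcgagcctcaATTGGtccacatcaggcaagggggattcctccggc
Herpud1, chr8:94386287-94386417, plus strand, CARE followed by ERSE-II: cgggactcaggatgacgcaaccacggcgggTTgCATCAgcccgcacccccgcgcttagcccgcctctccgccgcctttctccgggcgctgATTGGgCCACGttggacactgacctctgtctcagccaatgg

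ERSE matches lay in the promoters of 7 members, each of them in the ER chaperone role: Calr, Canx, Creld2, Dnajc3, Hsp90b1, Hspa5 and Pdia6. That is 53.8% of the 13 genes of this role with a promoter, against 0.137% of all 27025 genes with a promoter. CARE matches lay in 7 members as well, Asns, Chac1, Herpud1, Nupr1, Slc7a11, Trib3 and Vldlr, which is 18.9% of 37 members against 4.51% of all such genes. Among the 9 CHOP-type stress genes 4 held CARE and none held ERSE. Ppp1r15a was the only member with CRE, found in 2.03% of all such genes, Herpud1 the only one with ERSE-II, found in 0.0444%, and no member held UPRE, found in 0.714%. Counted over all 32851 promoters, the shares were 0.119% for ERSE, 3.97% for CARE, 1.79% for CRE, 0.0365% for ERSE-II and 0.676% for UPRE. Known elements farther from the start lie outside these windows, so a promoter without a match here may carry one elsewhere. The members were picked as known genes of these pathways, so a high share of known elements among them is no result of these arrays.

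Signals were compared as levels, the log2 processed signal of a probe minus the 75th percentile of its own array, and a difference is the level on the miR-122 array minus that on the PBS array. Where a pair of levels is given, the first is PBS and the other miR-122, and a level has meaning only against the same probe on the other array. With 1 culture per group, differences below carry no p-value and no error between cultures, and genes were counted by size, at least 2-fold. Within an array, 264 probes printed in many copies had a median standard deviation over spots of 0.05 for PBS and 0.06 for miR-122. Between probes of the same gene, differences had a pooled standard deviation of 0.30. These spreads are technical, and precision is limited by how few arrays there are. RNA came from whole cultures, so fewer cells making a transcript and less transcript per cell cannot be told apart. Of the macrophage markers 9 were measured on both arrays, with differences from -0.85 for Itgam to 3.34 for Fcgr1 and Csf1r at -0.78, and 5 of them were negative; their part in the results was not tested. Alb and Apoa1 of hepatocytes, Cd3d and Ms4a1 of lymphocytes and Pdgfra of fibroblasts were well above background on neither array.

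Most CHOP-type stress genes had higher levels with miR-122, and the ER chaperones as a group did not. Of 40 measured members, 6 were at least 2-fold higher, against 4.57% of all 15017 genes measured on both arrays, and 0 were at least 2-fold lower, against 1.78%. Of the 6, 5 were CHOP-type genes, namely Ddit3, Chac1, Ppp1r15a, Nupr1 and Trib3, and the remaining one was the transcription factor gene Atf5. The share of genes past 2-fold on the higher side varied with brightness. Atf5, Ppp1r15a, Nupr1 and Trib3 lay in bin 9 of 10 bins of mean level, where this share was 5.99%. It was 3.60% in bin 7, which holds Chac1, and 8.12% in bin 10, the brightest. At a size of 1.5-fold, 11 members were higher, against 12.1% of all genes, and 1 was lower, against 5.99%. The median difference was 1.56 for 8 CHOP-type genes, 0.29 for 7 sensors and transcription factors, 0.25 for 8 amino acid and one-carbon enzymes, 0.05 for 3 transporters and -0.0047 for 14 ER chaperone, folding and disposal genes. Over all members it was 0.18 and over all genes 0.09, or 0.0019 and -0.08 with median scaling. Under each other scaling or background correction 5 members were higher and 0 lower. Of all genes, 3.14% were then higher and 3.04% lower with median scaling, 3.46% and 2.38% with quantile normalization, 2.59% and 0.953% with normexp, and 3.52% and 2.36% by the authors' values. The other 34 members lay within 2-fold and 22 of the 40 members lay above the median of all genes.

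**Figure D1:**
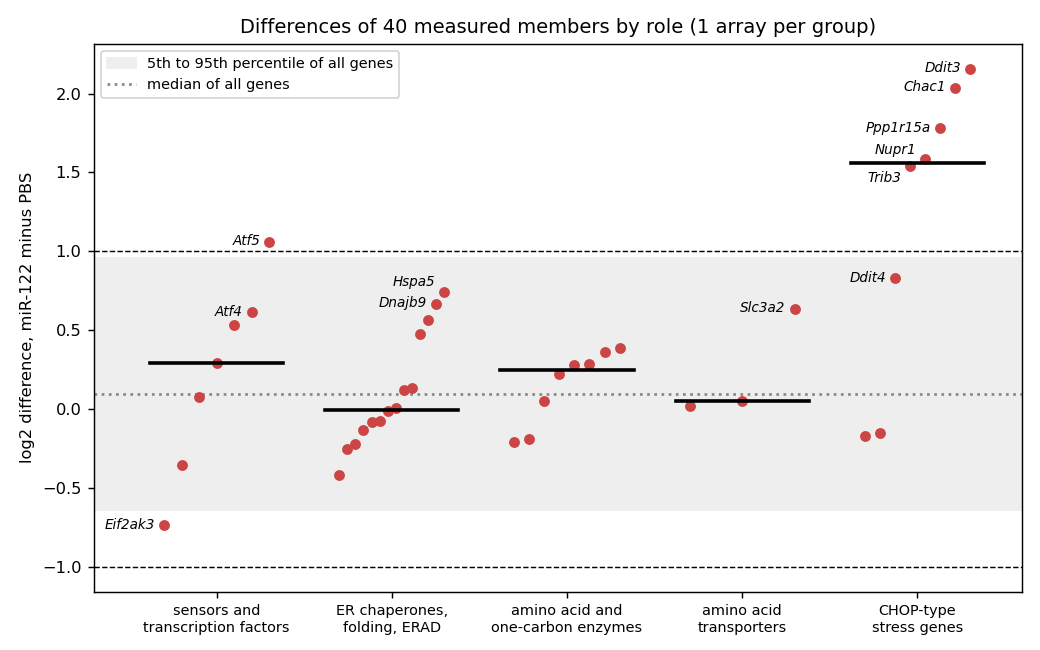
Log2 difference, miR-122 minus PBS, of each of the 40 measured members by role (points), with the median of each role (black bars), the median and the 5th to 95th percentile range of all 15017 genes (dotted line and grey band) and 2-fold in either direction (dashed lines), from 1 array per group. The CHOP-type genes reach 2.16 with a median of 1.56, and no ER chaperone is above 0.74.

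Ddit3, which encodes the transcription factor CHOP, had the largest difference of the members. Its level was -2.80 with PBS and -0.65 with miR-122, a 4.46-fold difference that 0.673% of all genes exceeded. Its probe was dim, in bin 4 of 10 bins of mean level, where 3.86% of 1502 genes were at least 2-fold higher. With normexp background correction, which shrinks differences of dim probes, Ddit3 was 2.76-fold higher. It stayed past 2-fold by this correction too.

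Chac1, which encodes an enzyme that breaks down glutathione and is a known target of ATF4, had a level of 0.16 with PBS and 2.19 with miR-122. This was a 4.11-fold difference, 3.35-fold by normexp, and 0.746% of all genes exceeded its difference. Ppp1r15a encodes GADD34, which brings a phosphatase to eIF2 and so reverses the translational arrest. Its levels were 2.56 and 4.33 on the PBS and miR-122 arrays, 3.43-fold higher on the latter. The stress-inducible chromatin protein gene Nupr1 had levels of 1.73 and 3.31, a difference of 1.58. Trib3, which encodes a pseudokinase induced by ATF4 and CHOP, had levels of 1.79 and 3.33 and was 2.91-fold higher. Under the other scalings, the background correction and the authors' values, each of these 4 genes stayed at least 2.58-fold higher. The lowest was Trib3 with median scaling. Each has 1 probe, so the probe rules could not change its value.

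Not every gene of this role followed them. Ddit4, which encodes the mTORC1 inhibitor REDD1, had levels of 0.81 and 1.64 and was 1.78-fold higher, short of 2-fold. The leucine-sensing mTORC1 inhibitor gene Sesn2 had levels of 2.03 and 1.86, a difference of -0.17. For Stc2, which encodes the secreted glycoprotein stanniocalcin 2, the processed signals were 935 with PBS and 696 with miR-122, a difference in level of -0.15. Sesn2 and Stc2 are both described as ATF4 targets, and their differences were within the spread between probes of one gene. With median scaling they were -0.35 for Sesn2 and -0.32 for Stc2, just beyond that spread. Vldlr, another reported ATF4 target, had processed signals of 11.8 and 9.72 on its brighter probe, not well above background on either array.

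**Figure D2:**
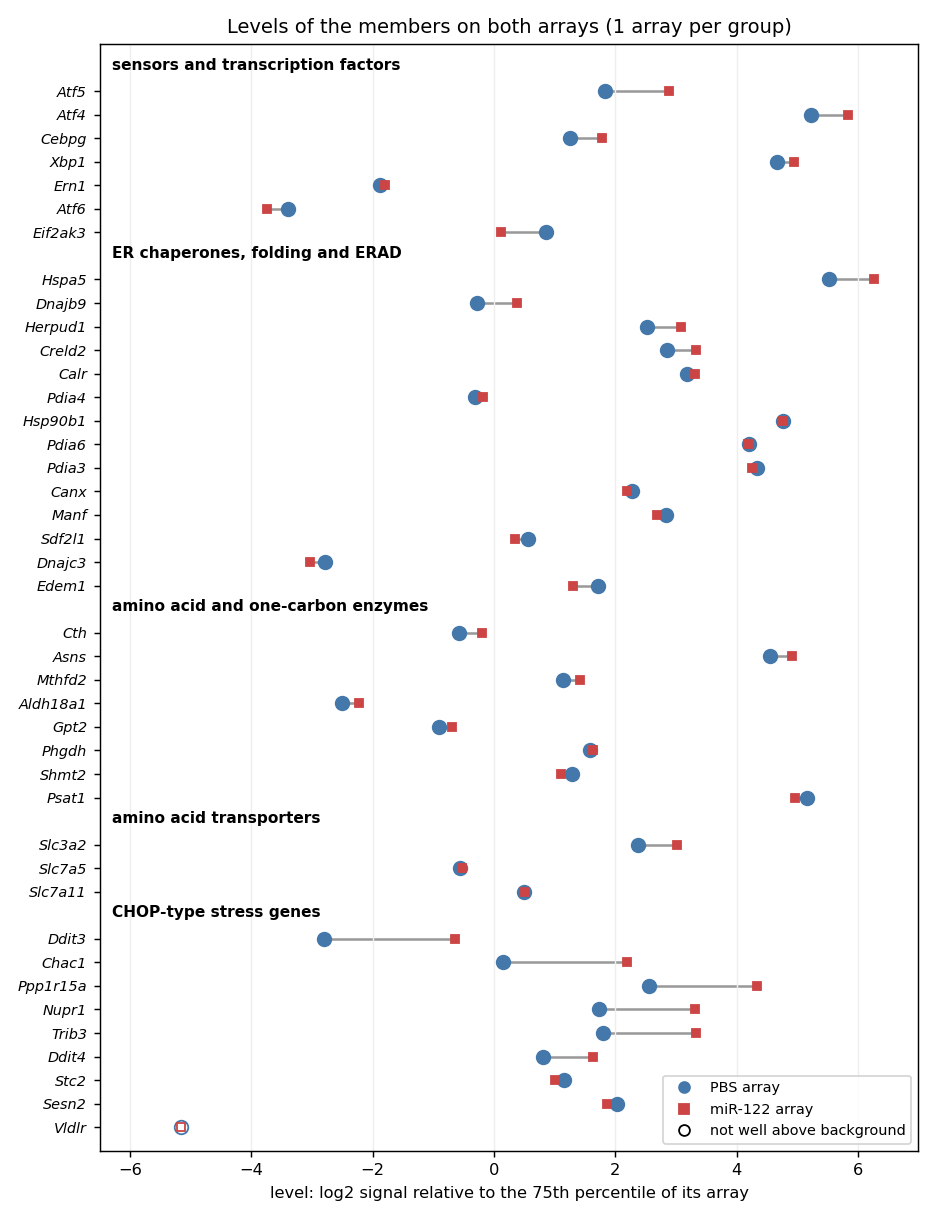
Level of each member on the PBS array (blue circles) and the miR-122 array (red squares), as log2 signal relative to the 75th percentile of the array, grouped by role and sorted by difference, with 1 array per group. The pairs of Ddit3, Chac1, Ppp1r15a, Nupr1 and Trib3 lie farthest apart. The chaperone pairs lie closer together, at most 0.74 apart for Hspa5, and Vldlr (open symbols) was not well above background.

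None of the sensor genes was past 2-fold in either direction. Eif2ak3, the gene of the sensor kinase PERK, had a level of 0.85 with PBS and 0.11 with miR-122 and was 1.67-fold lower, the most negative difference of the members, with 3.68% of all genes more negative. With median scaling it was 1.88-fold lower. The level of Ern1, the gene of IRE1, was -1.88 and -1.80, a difference of 0.08 whose sign turned under other scalings. Atf6 was dim, with levels of -3.39 and -3.74 and a difference of -0.35, or -0.04 with normexp. Of the sensor genes Eif2ak3 lay farthest from the median of all genes, whereas Ern1 lay next to it, on the lower side here and on the upper side with quantile normalization, normexp and the authors' values.

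Of the 4 transcription factor genes, each had a positive difference and Atf5 alone was past 2-fold. Atf4 itself had levels of 5.23 and 5.85 on its brighter probe, 1.53-fold higher, and a difference of 0.36 on its dimmer probe. Atf5, a relative of Atf4 whose translation is controlled in a similar way, had levels of 1.83 and 2.89 and was 2.09-fold higher, close to the size counted. Every other scaling or background correction left it short of 2-fold, with a difference of 0.89 by median scaling, 0.98 by normexp and 0.99 by the authors' values. With quantile normalization the difference was 0.9997, so it missed the size counted only narrowly. Cebpg, which encodes a dimer partner of ATF4, had levels of 1.25 and 1.78 and was 1.45-fold higher. Xbp1 had levels of 4.66 and 4.95, a difference of 0.29, or 0.10 with quantile normalization. The sources used here do not say whether its probe separates the spliced from the unspliced transcript.

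Among the 14 ER chaperone, folding and disposal genes, 7 had positive and 7 negative differences, and none was past 2-fold. Hspa5, which encodes the ER chaperone BiP, the usual readout of the response, had levels of 5.52 and 6.26 and was 1.67-fold higher, or 1.41-fold with quantile normalization. Dnajb9, a BiP co-chaperone and known XBP1 target, had levels of -0.28 and 0.39 on its brighter probe, 1.59-fold higher, while its dimmer probe differed by 0.16. Herpud1, a disposal factor that ATF4 and ATF6 both induce, had levels of 2.52 and 3.09 and was 1.48-fold higher. These members lay above most of the array, yet between the 5th and 95th percentile of all genes, -0.64 and 0.96. Creld2, a secreted ER stress protein, was measured repeatedly within each array, since its probe was printed in several copies. Over 9 spots per array its levels were 2.86 and 3.34, with standard deviations over spots of 0.04 and 0.03, and it was 1.39-fold higher.

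Of the remaining members of this role, Calr and Pdia4 lay just above the median of all genes and 8 lay below it. The HSP90 homologue gene Hsp90b1 had a level of 4.77 on each array, a difference of 0.01. For the lectin chaperones, the difference was 0.14 for Calr and -0.08 for Canx, and for the disulfide isomerases it was 0.12 for Pdia4, -0.01 for Pdia6 and -0.08 for Pdia3. Lower still were Manf, an ER stress-induced secreted protein, at -0.14, Sdf2l1, a component of a BiP complex, at -0.22, and the co-chaperone gene Dnajc3 at -0.25. Edem1, which steers misfolded glycoproteins to disposal and is a known XBP1 target, had the lowest value of this role, with levels of 1.72 and 1.30, 1.34-fold lower. Signs near 0 are not settled, since those of Hsp90b1, Calr, Pdia4 and Pdia6 turned under other scalings or probe rules.

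Scaling the arrays by a constant leaves the distance between roles as it is. The CHOP-type median exceeded the chaperone median by 1.57, and by 1.47 with normexp and 1.66 with quantile normalization. Of 8 CHOP-type genes, 6 lay above every chaperone, also under each of these settings and with the authors' values. The remaining 2, Sesn2 and Stc2, lay among the chaperones. No test was made of this distance, since nothing here estimates the spread between cultures. The roles were set with earlier results of these data known, and every setting reprocesses the same 2 arrays. The distance therefore describes these arrays and is not independent support for the grouping.

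The enzymes that ATF4 is known to drive showed small differences. Asns, the asparagine synthetase gene and a standard ATF4 target, had levels of 4.56 and 4.92 and was 1.28-fold higher. Cth, which makes cysteine from cystathionine, had the highest value of this role, with levels of -0.57 and -0.19 on its brighter probe, 1.31-fold higher, and a difference of 0.49 on the other. The one-carbon enzymes of mitochondria went different ways, with 0.29 for Mthfd2 and -0.19 for Shmt2. The serine synthesis enzymes lay near 0 or below it. Phgdh, the first of them, had a difference of 0.05 and Psat1 the lowest value of the role, with levels of 5.17 and 4.96, a difference of -0.21 that its other probe gave as -0.16. The proline enzyme gene Aldh18a1 and the alanine transaminase gene Gpt2 had differences of 0.28 and 0.22. Of these 8 enzymes, 5 lay above the median of all genes, and all lay within 1.31-fold.

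Of the transporters, Slc3a2 alone differed by more than the spread between probes. It encodes the heavy chain that carries several amino acid transporters to the cell surface, and its levels of 2.38 and 3.01 made it 1.55-fold higher. Its partner Slc7a5, the light chain for large neutral amino acids, had levels of -0.57 and -0.52 and a difference of 0.05, with 0.04 on its second probe. The cystine transporter gene Slc7a11, whose promoter holds CARE in both orientations, had levels of 0.49 and 0.51, a difference of 0.02. The signs for Slc7a5 and Slc7a11 turned under other scalings.

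Set against the promoter elements, the measured members with CARE spread from Slc7a11 at 0.02 over Asns at 0.36 and Herpud1 at 0.57 to Trib3, Nupr1 and Chac1 between 1.54 and 2.04. Of these 6 genes, 3 were at least 2-fold higher. Over all 399 measured genes with CARE, these 6 included, the share was 8.77%, and over all genes 4.57%. The 7 members with ERSE had a median difference of 0.0052 and ranged from -0.25 for Dnajc3 to 0.74 for Hspa5, with 0 past 2-fold. Over all 16 measured genes with ERSE, these 7 included, 0 were past 2-fold. With so few genes, neither count is a result about its element. Ddit3 and Atf5 held none of the 5 elements in these windows, although both were past 2-fold, which says only that the letters searched were not in this stretch. Ppp1r15a, with the CRE close to its start, was 3.43-fold higher, while of all 378 measured genes with CRE 3.97% were at least 2-fold higher.

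**Figure D3:**
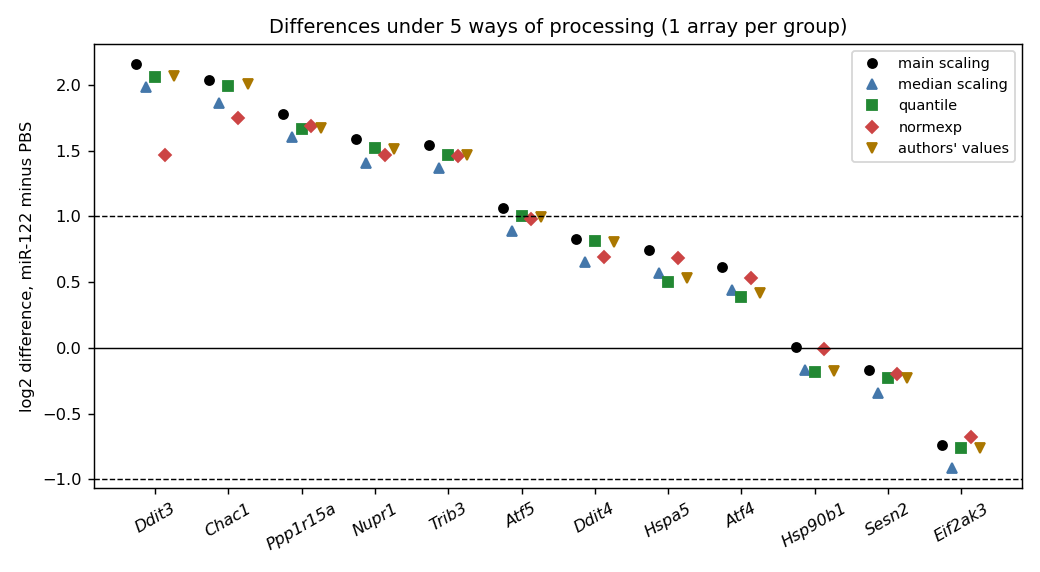
Log2 difference, miR-122 minus PBS, of 12 members under 5 ways of processing the same 2 arrays: the 75th percentile scaling used here, median scaling, quantile normalization, normexp background correction and the authors' values. Ddit3 is at 2.16 with the first and at 1.46 with normexp, and Eif2ak3 stays negative throughout. Atf5 lies just above 2-fold (upper dashed line) with the first and below it with the others, from 0.89 with median scaling to 0.9997 with quantile normalization.

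The counts past 2-fold in 7 further lists of pathway genes are to be read against the 4.57% of all genes that were higher and the 1.78% that were lower. With lists this small, none of these counts is a result about its list. In the list of other eIF2 pathway genes, 3 of 22 measured genes were past 2-fold, each of them higher, and the median was 0.08. They were Atf3, a stress transcription factor gene downstream of ATF4 and of inflammatory signals, with levels of 2.32 and 3.83, Gadd45a with 0.43 and 1.58, and Eif2ak2 with 0.41 and 1.51. Atf3 was 2.86-fold, Gadd45a 2.23-fold and Eif2ak2 2.14-fold higher, but Gadd45a was 1.97-fold and Eif2ak2 1.90-fold higher with median scaling. Eif2ak2 encodes PKR, the eIF2 kinase that double-stranded RNA activates, and is a known interferon-induced gene. The other eIF2 kinase genes differed by 0.27 for Eif2ak1 and -0.46 for Eif2ak4, so of the 4 kinase genes with Eif2ak3, Eif2ak2 was the one past 2-fold.

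In the list of other amino acid transporters and enzymes, 1 of 14 was higher and 1 lower. The neutral amino acid transporter gene Slc1a4, a known ATF4 target, had levels of 2.65 and 4.10 and was 2.73-fold higher. The cytosolic one-carbon enzyme gene Shmt1 had levels of -2.09 and -3.30, 2.31-fold lower, but was within 2-fold with normexp. The 12 aminoacyl-tRNA synthetase genes, many of them ATF4 targets, had a median of 0.10 with none past 2-fold, and Nars had the largest difference among them, 0.68. In the list around IRE1 and ATF6, 1 of 16 was higher, the kinase gene Map3k5 that acts downstream of IRE1, with levels of 1.04 and 2.25, 2.31-fold higher.

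No gene of the other secretory pathway lists was past 2-fold. Of 26 measured ERAD and quality control genes, 10 had positive and 16 negative differences, with a median of -0.14, while of all 15017 genes 9048 had positive and 5969 negative ones, with a median of 0.09. Uggt1, the glucosyltransferase that tests glycoprotein folding, had the largest difference, with levels of 3.16 and 2.43, 1.66-fold lower. The 27 genes of translocation, signal peptidase and secretion had 12 positive and 15 negative differences, with a median of -0.08, and the largest difference was 0.68 for the coat protein gene Sec23b. Cytosolic heat shock genes had a median of 0.14 over 16 genes, also with none past 2-fold, and the largest difference was 0.82 for Hspa1a, a dim probe. With median scaling the medians of the heat shock, synthetase, eIF2 pathway and IRE1 and ATF6 lists turned negative.

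**Figure D4:**
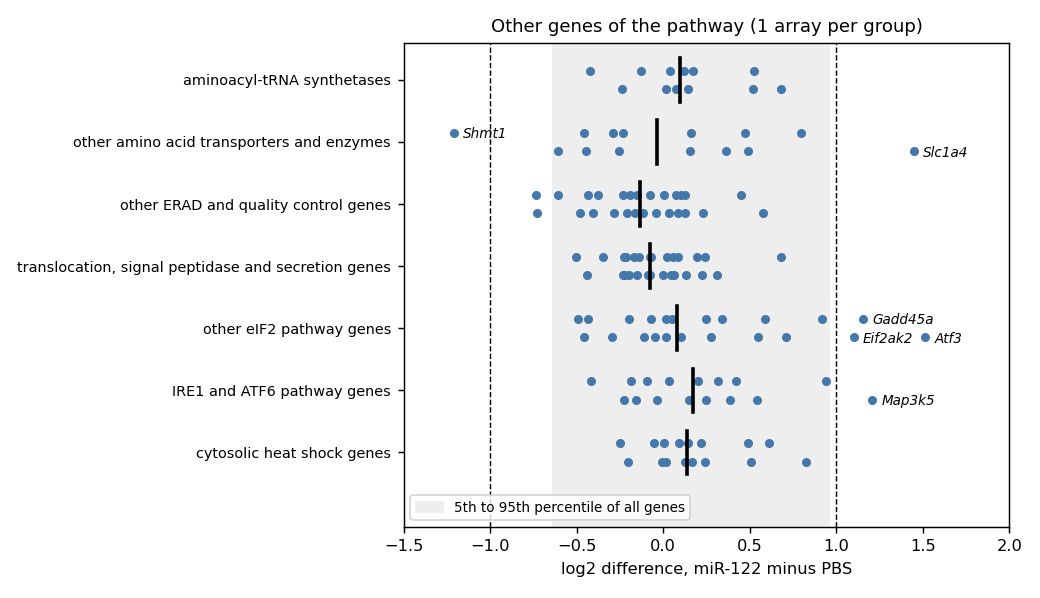
Log2 difference, miR-122 minus PBS, of the measured genes of 7 further lists (points), with the median of each list (black bars), the 5th to 95th percentile range of all genes (grey band) and 2-fold in either direction (dashed lines), from 1 array per group. The medians lie between -0.14 and 0.17, and the genes past 2-fold are Slc1a4, Shmt1, Atf3, Gadd45a, Eif2ak2 and Map3k5.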

How the data were processed

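The deposited scanner files hold spot intensities from Agilent Feature Extraction 11.0.1.1, background-subtracted and detrended but not normalized between arrays, per the file headers. The series matrix holds the authors' log2 values, with a normalization the sources used here do not state; both columns have a median of 5.16, and each correlated best with its own array. Controls and outlier spots were left out, spots of a probe were averaged, and each array was set to the 75th percentile of 39427 probes. Accessions were matched to RefSeq of GRCm38.p6 for 27232 probes. A gene took its brightest probe well above background on at least 1 array, and counts use genes so on both.

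Members, roles and lists were chosen with earlier results of these data known. All members are reported; from each further list the genes past 2-fold are named, at most 3, or else the one with the largest difference. Alternatives were median scaling, quantile normalization, normexp with an offset of 50, the authors' values, no filter or a stricter one for dim probes, averaging a gene's probes, outlier spots kept and 1.5-fold. The counting was tested on simulated data of miR-122 minus PBS over 15778 genes. A true log2 difference of 1.5 was counted as past 2-fold in 100% of 31 genes, and one of 0.7 in 3.03% of 33. The simulated noise was only the spread over spots within an array, without the spread between probes or between cultures. It therefore checks that the counting runs as meant, not how reliable a count from these arrays is. Tools were R 4.3.3, limma 3.58.1, Python 3.11.15, numpy 2.4.6, pandas 2.3.3 and matplotlib 3.10.9.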

Additional observations from a re-analysis of the deposited data

How the results depend on the processing

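Recomputed under 8 alternatives, 318 of 320 differences of single members moved by less than the spread between probes of one gene. The exceptions were Ddit3, 1.46, and Atf6, -0.04, both with normexp. Much of this count was fixed in advance. Both changes of the filter for dim probes gave the same differences, and keeping outlier spots hardly moved any. Averaging probes could not change the 33 members with 1 probe. The count of members at least 2-fold higher was 5 or 6, with Atf5 the one that left, and the count lower was 0, while at 1.5-fold they were 11 and 1. Median scaling moved the median of all genes by -0.18 and quantile normalization by -0.13. The chaperone median was 0.0445 as the mean over probes, and the transporter median -0.13 with median scaling, both opposite in sign to the values reported. Signs turned for 8 members near 0. No paired analysis was possible because each group holds 1 array. With 1 array per group, leaving out an array leaves no comparison. Signal over background limits Vldlr, Atf6, Dnajc3 and Ddit3, and also Ern1 and Aldh18a1, which share bin 4 of mean level with Ddit3.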

Other observations

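The promoter elements were also counted outside the members. Of 393 measured genes with CARE in the 300-base promoter, 32 were past 2-fold on the higher side, 8.14%, against 536 of 11944 measured genes with a promoter, 4.49%. The median difference was 0.16 against 0.09, and 2.04% against 1.77% were at least 2-fold lower. For CRE, which begins with the same letters as UPRE, the share higher was 3.71% of 377 genes, and for UPRE 4.17% of 120. ERSE occurred in 9 measured genes outside the members, none past 2-fold, with a median of 0.05. These values describe 2 arrays, and no test was made.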
